A study of Mus musculus with 6 samples.

Results

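The glutathione transferases and the antioxidant genes of the NRF2 pathway were compared between STOSE cells, a mouse ovarian surface epithelial (OSE) line that transformed spontaneously during long culture, and early passage M0505 cells, the line from which it arose. Members were chosen by gene symbol. They are the cytosolic and mitochondrial transferases of the alpha, kappa, mu, omega, pi, theta and zeta classes (*Gst*), the microsomal transferases (*Mgst*), the glutathione peroxidases (*Gpx*), the peroxiredoxins (*Prdx*), the thioredoxin reductases (*Txnrd*), the superoxide dismutases (*Sod*), and *Gclc*, *Gclm*, *Gss*, *Gsr*, *Nqo1*, *Hmox1*, *Srxn1*, *Nfe2l2*, *Keap1* and *Cat*. This gave 54 of the 20405 genes on the array. Total RNA of each line was hybridized to 3 Affymetrix Mouse Gene 1.0 ST arrays, which the labels name as biological replicates. Both lines have the FVB/N background, the labels give neither a transgene nor a treatment, and both were grown in the same serum-containing OSE medium with epidermal growth factor. Each line is a single culture lineage, so the p-values measure only the spread between these samples. Values are robust multi-array average (RMA) log2 values, and a fold change is 2 to the difference between the mean log2 values of STOSE and M0505 cells.

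NRF2, encoded by *Nfe2l2*, is a transcription factor that KEAP1 holds for degradation in unstressed cells. When electrophiles or oxidants modify KEAP1, NRF2 accumulates, pairs with a small MAF protein and binds antioxidant response elements in genes for glutathione synthesis, conjugation and peroxide removal. Glutathione transferases join glutathione to electrophiles, including several drugs used against cancer, while peroxidases, peroxiredoxins, catalase and the superoxide dismutases clear peroxides and superoxide.

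The family did not move as a block. *Sod3*, *Mgst3*, *Mgst1*, *Txnrd3*, both pi class transferases and *Nqo1* were higher in STOSE cells, whereas *Gpx7* and the transferases *Gstm4*, *Gstm6*, *Gstm1* and *Gstt3* were lower. At an adjusted p under 0.05 (limma, Benjamini-Hochberg over all genes) with a change of at least 2-fold, 7 members (13.0%) were higher, against 4.90% of all genes. The 5 lower members (9.26%) stood against 7.59% of all genes. By adjusted p alone 14 members were higher, where the share of all genes was 31.6%, and 17 were lower, where it was 24.8%. After centring of the arrays on their medians, which raised every log2 difference by 0.20, these counts were 26 and 14. The shares of all genes at that setting are not given here. The arrays of the lines did not overlap for 33 members (61.1%), against 64.6% of all genes. The median log2 difference was −0.03 over the members and 0.08 over all genes. Of the 54 members 32 differed by less than 1.5-fold, against 15279 of all 20405 genes. Because whole cultures were read, fewer cells with a transcript and less of it per cell cannot be told apart.

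**Figure D1:**
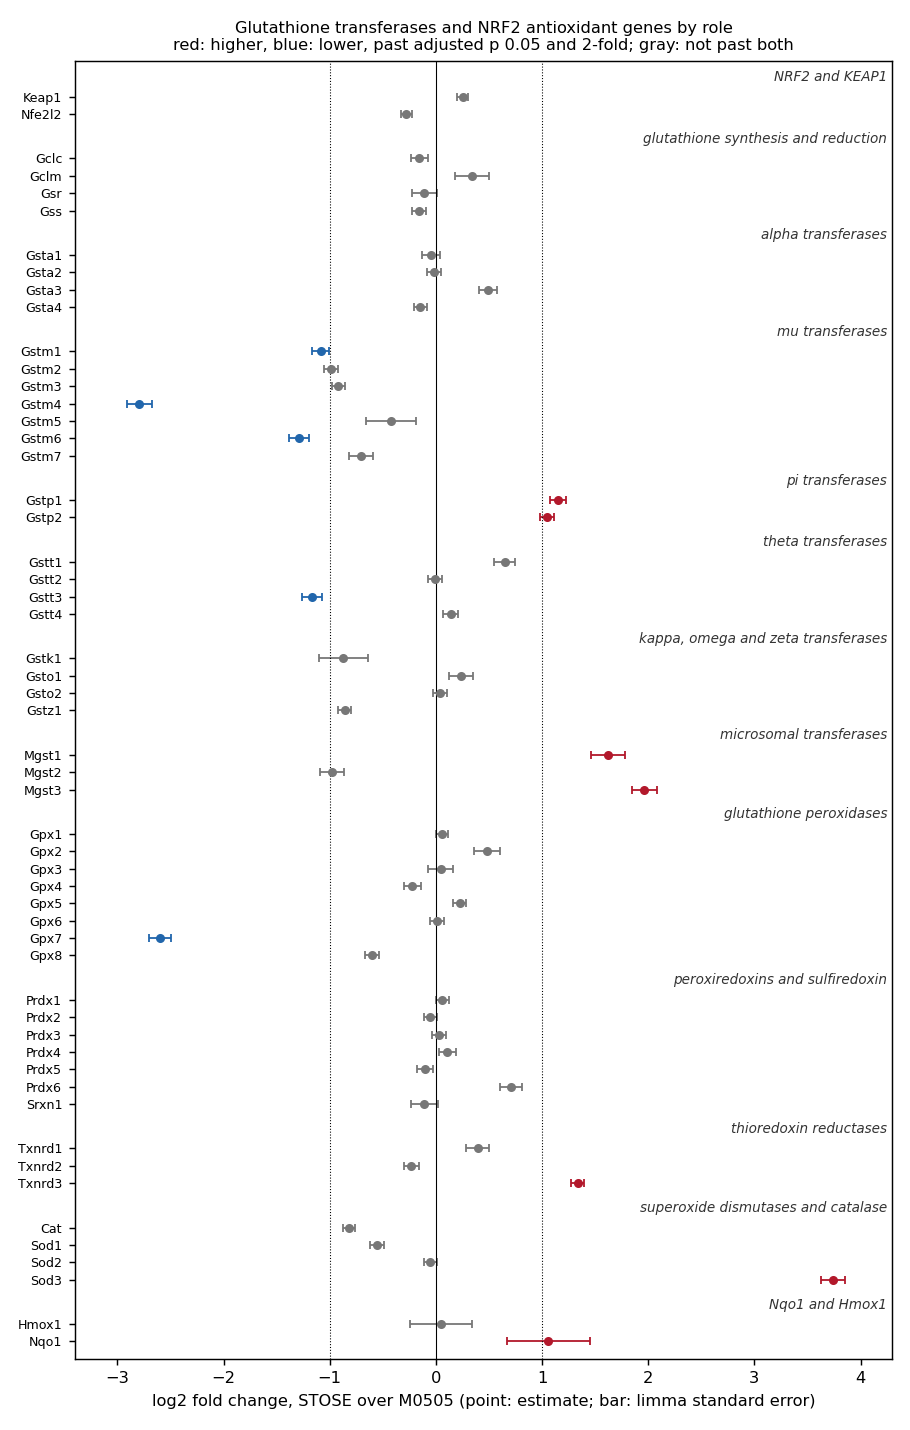
Log2 fold change of STOSE over M0505 cells for the 54 members, grouped by role. Points are limma estimates, bars are standard errors, dotted lines mark 2-fold, and red and blue mark the 7 higher and 5 lower members, among which *Sod3* lies farthest to the right at 3.74 and *Gstm4* farthest to the left at −2.79.

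All 11 OSE markers, cytokeratins and *Wt1* among them, lay in both lines above 4.72, the level under which 95% of the 1134 olfactory receptor probe sets fell. Their mean values ran from 10.48 to 12.25 in M0505 cells and from 5.61 to 11.91 in STOSE cells, where *Krt7*, *Krt8*, *Krt19* and *Gata4* were lower. The leukocyte gene *Ptprc* was under that level in both lines, at 3.79 and 3.81, while the macrophage gene *Cd68* fell from 9.78 to 6.96, and in all 2 of 7 leukocyte markers exceeded it in each line. Of 6 granulosa markers 3 exceeded it in M0505 and 4 in STOSE cells, with *Fshr* and *Cyp19a1* under it and *Inha* falling from 9.61 to 5.68. Of 5 endothelial markers 4 and 3 exceeded it, and *Kdr* fell from 9.58 to 4.41. The part of cell makeup in the results was not tested. The median of an array was 6.46 to 6.49 in M0505 and 6.25 to 6.29 in STOSE cells, and centring the arrays on it raised every log2 difference by 0.20.

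The pathway's own regulator and its inhibitor differed little. *Nfe2l2* read 11.50 in each M0505 array and 11.18, 11.23 and 11.25 in STOSE replicates 1, 2 and 3. The STOSE arrays were all lower, by −0.28 on the log2 scale (SE 0.05, adjusted p = 0.00243 in limma), but with the arrays centred on their medians the difference was −0.08 (adjusted p = 0.234). *Keap1* read 7.77, 7.78 and 7.81 in M0505 and 8.06, 8.05 and 8.00 in STOSE cells. It was slightly higher in every STOSE array, by 0.25 (SE 0.05, adjusted p = 0.00437), and by 0.45 after centring.

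No gene of glutathione synthesis or reduction was past both thresholds. None had an adjusted p under 0.05 in limma without covariates, with all 6 arrays as deposited, while a replicate block brought *Gclm* and *Gclc* under 0.05. *Gclc* and *Gclm* encode the catalytic and the modifier subunit of glutamate-cysteine ligase, the rate-limiting step of glutathione synthesis. *Gclc* averaged 10.87 ± 0.09 (SD, n = 3) in M0505 and 10.71 ± 0.11 in STOSE cells, and the M0505 and STOSE arrays overlapped. Its difference was −0.15 (adjusted p = 0.125), and −0.21 (adjusted p = 0.0468 in limma) without STOSE replicate 1. *Gclm* read 10.93, 10.30 and 10.37 in M0505 and 11.01, 10.76 and 10.85 in STOSE cells. Its difference of 0.34 (SE 0.16, adjusted p = 0.103) was within the spread of the M0505 arrays, where replicate 1 stood above the other two. Without M0505 replicate 1 it was 0.54 (adjusted p = 0.0017 in limma), and after median centring it was also 0.54 (adjusted p = 0.0128). *Gss*, glutathione synthetase, averaged 8.87 ± 0.10 and 8.72 ± 0.04, with an adjusted p of 0.0788 in limma and of 0.0497 without M0505 replicate 2. *Gsr*, which returns oxidized glutathione to its reduced form, averaged 10.40 ± 0.25 and 10.29 ± 0.03.

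The mu class, the largest transferase class on the array, was lower in STOSE cells in all 7 genes by sign. It was lower in 6 by adjusted p alone, where the share of all genes was 24.8%. With the 2-fold threshold 3 were lower (42.9%, against 7.59% of all genes). Its median log2 difference was −0.99. *Gstm4* read 7.59, 7.42 and 7.57 in M0505 replicates 1, 2 and 3 and 4.90, 4.45 and 4.85 in STOSE cells. This was a 6.93-fold decrease (log2 −2.79, SE 0.12, adjusted p = 3.94e-07) with no overlap, and the STOSE mean of 4.73 sat at the olfactory receptor level, so the signal in STOSE cells was close to what silent genes give. *Gstm1*, an abundant transferase of mouse liver, read 9.62, 9.50 and 9.44 in M0505 and 8.55, 8.35 and 8.40 in STOSE cells. Each STOSE array was below each M0505 array, by 2.12-fold (log2 −1.09, SE 0.08, adjusted p = 6.24e-06), which became −0.89, less than 2-fold, after median centring. *Gstm6* read 4.16, 4.36 and 4.38 against 2.90, 2.96 and 3.18. Its 2.44-fold decrease (log2 −1.29, SE 0.09, adjusted p = 7.09e-06) lay wholly under the olfactory receptor level, and a filter at that level removed the gene.

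The other mu transferases were not past both thresholds. *Gstm2* read 10.33, 10.35 and 10.33 in M0505 and 9.25, 9.46 and 9.34 in STOSE cells, just short of 2-fold (1.98-fold lower, log2 −0.99, SE 0.07, adjusted p = 4.85e-06). Without STOSE replicate 2 it passed, at −1.04. *Gstm3* was 1.89-fold lower (log2 −0.92) by the brighter of its 2 probe sets, and the dimmer probe set gave −0.41. *Gstm7* differed by −0.70 (SE 0.11, adjusted p = 0.000863). *Gstm5* differed by −0.42 (SE 0.23, adjusted p = 0.16), and its arrays overlapped, with replicate 1 low in both lines, at 6.88 against 7.61 and 7.74 in M0505 and at 6.62 against 7.19 and 7.15 in STOSE cells. The sign of all 7 stayed negative after centring, with *Gstm5* at −0.22. Mu transferases are close paralogs, and reads of one probe set may include RNA of another member, which could not be separated here.

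By RefSeq gene order (GRCm38.p6) the 7 mu genes lie side by side on chromosome 3, in the order *Gstm5*, *Gstm7*, *Gstm6*, *Gstm3*, *Gstm2*, *Gstm1*, *Gstm4*, with no other measured gene between them. The nearest genes on either side all had differences above 0. On the *Gstm5* side *Eps8l3* differed by 0.33, *Csf1*, a macrophage growth factor, by 1.47, *Ahcyl1* by 0.78 and *Fam40a* by 0.66. On the *Gstm4* side *Ampd2* differed by 0.93, *Gnat2* by 0.33, *Gnai3* by 0.64 and *Gpr61* by 0.10. Within the cluster the size of the difference varied from −0.42 to −2.79, with the largest at the *Gstm4* end. Chromosome copy number, which long-cultured lines can alter, was not measured on these arrays. The study's karyotypes showed loss of chromosome 3 in all analyzed cells of both lines. The part of copy number in these differences was not tested.

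**Figure D2:**
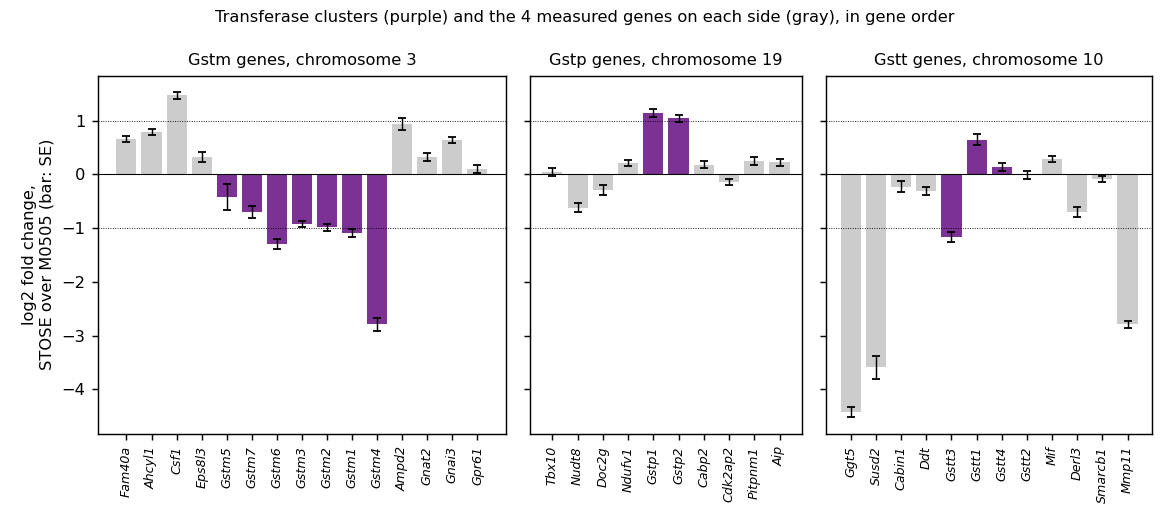
Log2 fold change (bars, with limma standard errors) of the mu, pi and theta transferase clusters, in purple, and of the 4 nearest measured genes on each side, in gray, in RefSeq gene order. All 7 mu genes lie below 0 between neighbours above it, the 2 pi genes rise together, and in the theta cluster *Gstt3* and *Gstt1* point in opposite directions.

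The pi class moved the other way. *Gstp1* encodes the pi transferase that is abundant in many epithelial tumors, and *Gstp2* is its close copy in the mouse. *Gstp1* read 10.08, 9.87 and 10.10 in M0505 and 11.10, 11.23 and 11.17 in STOSE cells. All STOSE arrays were above all M0505 arrays, by 2.22-fold (log2 1.15, SE 0.08, adjusted p = 4.79e-06). *Gstp2* read 8.27, 8.29 and 8.44 against 9.38, 9.36 and 9.39. It was higher by 2.06-fold (log2 1.04, SE 0.07, adjusted p = 3.16e-06), and its second probe set gave 1.03. The copies are close paralogs, and the probe set of each may include RNA of the other, which could not be separated here. They stand next to each other on chromosome 19, between *Ndufv1*, which differed by 0.22, and *Cabp2*, which differed by 0.18.

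The promoters of both pi genes are shown because they hold the same short match, TGAGTCAGC, near the start site. Sequences are from RefSeq, build GRCm38.p6, and run 5′ to 3′ on the gene's own strand from 250 bases before to 50 bases after the start site. The core of the antioxidant response element, TGACNNNGC, was searched on both strands and was in neither pi promoter. Also searched was TGANTCAGC, which was added after the sequences had been read. Where its N is G or C it contains a binding site of the AP-1 factors, TGAGTCA or TGACTCA. Whether NRF2 or an AP-1 factor binds TGAGTCAGC in these cells was not tested. Capitals mark a match. *Gstp1* lies at chr19:4037863-4038162 on the minus strand and *Gstp2* at chr19:4042172-4042471 on the minus strand.
Gstp1: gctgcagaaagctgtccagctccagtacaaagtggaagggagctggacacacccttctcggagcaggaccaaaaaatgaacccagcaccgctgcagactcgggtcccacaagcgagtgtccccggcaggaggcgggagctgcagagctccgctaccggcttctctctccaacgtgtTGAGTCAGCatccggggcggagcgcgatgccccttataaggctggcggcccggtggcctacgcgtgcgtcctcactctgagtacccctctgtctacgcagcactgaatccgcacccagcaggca
Gstp2: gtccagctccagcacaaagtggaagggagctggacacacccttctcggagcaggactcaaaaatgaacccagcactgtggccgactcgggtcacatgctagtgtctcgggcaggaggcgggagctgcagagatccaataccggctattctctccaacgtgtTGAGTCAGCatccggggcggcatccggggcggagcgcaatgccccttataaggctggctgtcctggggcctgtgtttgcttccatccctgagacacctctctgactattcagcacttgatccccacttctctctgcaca

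In *Gstp1* the match TGAGTCAGC begins 74 bases before the start site, and in *Gstp2* 89 bases before it. The promoters were identical at 243 of 282 aligned bases (86.2%), and a further 36 columns of the alignment were gaps. Of the 54 members 47 had a promoter in the table, and 4 of these (8.51%), *Gstp1*, *Gstp2*, *Prdx1* and *Srxn1*, held TGANTCAGC, against 1.19% of all 32851 promoters and 1.33% of the genes on the array. This motif was added after the sequences had been read, and the pi promoters are near copies, so its shares cannot test for an excess. TGACNNNGC was held by 10 members (21.3%), against 12.4% of all promoters and 15.4% of the genes on the array. It was present in 1 of the 6 higher members with a promoter, 0 of the 5 lower members and 9 of the 36 others. A match is a description of these letters in this window and not a measured binding site.

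Of the theta class, *Gstt3* was lower and the other genes were not past both thresholds. *Gstt3* read 8.99, 9.26 and 9.31 in M0505 and 7.95, 8.09 and 8.02 in STOSE cells. The groups did not overlap, and the decrease was 2.24-fold (log2 −1.17, SE 0.09, adjusted p = 1.17e-05), or −0.97 after median centring. *Gstt1*, which conjugates small halogenated compounds, lay beside it on chromosome 10 and read 6.05, 6.39 and 6.28 in M0505 against 6.96, 6.95 and 6.76 in STOSE cells, a difference of 0.65 (SE 0.10, adjusted p = 0.000616). *Gstt2* differed by −0.01, and *Gstt4* stayed under the olfactory receptor level in both lines. Of the nearest measured genes on the *Gstt3* side, *Ddt* differed by −0.31, *Cabin1* by −0.23, *Susd2* by −3.59 and *Ggt5* by −4.43. On the *Gstt2* side *Mif* differed by 0.29, *Derl3* by −0.69, *Smarcb1* by −0.09 and *Mmp11* by −2.79.

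No alpha, kappa, omega or zeta transferase passed both thresholds. The alpha gene *Gsta4*, whose enzyme conjugates the lipid peroxidation product hydroxynonenal, averaged 11.30 ± 0.05 in M0505 and 11.16 ± 0.06 in STOSE cells (adjusted p = 0.072 in limma). *Gsta3* differed by 0.49 (SE 0.09, adjusted p = 0.00142), *Gsta2* by −0.02, and *Gsta1* lay under the olfactory receptor level. *Gstz1*, which also isomerizes maleylacetoacetate in tyrosine breakdown, differed by −0.86 (SE 0.06, adjusted p = 7.49e-06), 1.81-fold lower. *Gstk1*, the transferase of mitochondria and peroxisomes, read 6.73, 6.76 and 6.79 in M0505 but 6.51, 5.71 and 5.44 in STOSE cells. The STOSE arrays were all lower but far apart, with replicate 1 close to the M0505 level. The difference was −0.87 (SE 0.23, adjusted p = 0.0122), and −1.18, past 2-fold, without STOSE replicate 1. *Gsto1* and *Gsto2*, whose enzymes reduce dehydroascorbate, differed by 0.24 and 0.04.

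The microsomal transferases, integral membrane proteins unrelated in sequence to the cytosolic classes, split. *Mgst3*, which has transferase and peroxidase activity, read 5.14, 5.12 and 5.24 in M0505 and 6.86, 7.34 and 7.20 in STOSE cells. It was higher by 3.90-fold (log2 1.96, SE 0.12, adjusted p = 2.29e-06), starting from a level just above that of the olfactory receptors. *Mgst1*, abundant in the endoplasmic reticulum and the outer mitochondrial membrane, read 8.90, 9.50 and 9.55 in M0505 and 10.84, 10.98 and 10.98 in STOSE cells. Every STOSE array was above every M0505 array, by 3.08-fold (log2 1.62, SE 0.16, adjusted p = 4.28e-05). *Mgst2* read 8.40, 7.98 and 8.32 against 7.39, 7.22 and 7.15. It was lower by 1.97-fold (log2 −0.98, SE 0.12, adjusted p = 0.000129), and passed 2-fold without M0505 replicate 2, at −1.11, and without STOSE replicate 1, at −1.05.

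The *Mgst1* promoter is shown as that of the higher member which holds the core TGACNNNGC. It lies at chr6:138140277-138140576 on the plus strand, and the match, on the opposite strand and in capitals, begins 56 bases before the start site. A second *Mgst1* promoter in the table held no match.
Mgst1: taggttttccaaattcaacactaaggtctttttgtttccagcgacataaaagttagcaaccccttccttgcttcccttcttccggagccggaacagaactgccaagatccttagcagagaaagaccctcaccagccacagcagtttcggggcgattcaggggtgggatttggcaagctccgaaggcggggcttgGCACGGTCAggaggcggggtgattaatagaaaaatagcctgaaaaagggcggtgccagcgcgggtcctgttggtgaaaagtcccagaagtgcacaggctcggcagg

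Among the 8 glutathione peroxidases, which reduce peroxides with glutathione or a related thiol, *Gpx7* was the one past both thresholds. *Gpx7*, a peroxidase of the endoplasmic reticulum without selenocysteine, read 7.89, 8.25 and 8.14 in M0505 and 5.44, 5.41 and 5.63 in STOSE cells. The STOSE arrays were far below, by 6.07-fold (log2 −2.60, SE 0.10, adjusted p = 2.76e-07). Its nearest relative *Gpx8*, anchored in the endoplasmic reticulum membrane, read 11.21, 11.26 and 11.28 against 10.54, 10.71 and 10.70. *Gpx8* was 1.52-fold lower (log2 −0.60, SE 0.07, adjusted p = 9.05e-05 in limma). The cytosolic *Gpx1* averaged 11.40 ± 0.06 and 11.46 ± 0.03. *Gpx4*, which reduces lipid hydroperoxides in membranes and opposes ferroptosis, differed by −0.22 (SE 0.08, adjusted p = 0.0478), and its other probe set gave −0.21. *Gpx2* differed by 0.48, while *Gpx3*, *Gpx5* and *Gpx6* lay under the olfactory receptor level in both lines.

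The peroxiredoxins, which reduce peroxides through thioredoxin, differed little. *Prdx1* to *Prdx5* differed by −0.10 to 0.11, and none passed by adjusted p. *Prdx6*, the single-cysteine member that works with glutathione, read 10.64, 10.21 and 10.31 in M0505 and 11.05, 11.12 and 11.10 in STOSE cells. It was higher in every STOSE array, by 1.63-fold (log2 0.71, SE 0.11, adjusted p = 0.000542). *Srxn1*, encoding the sulfiredoxin that repairs overoxidized peroxiredoxins, read 10.37, 9.89 and 9.89 against 10.01, 9.90 and 9.91, a difference of −0.11 (SE 0.13, adjusted p = 0.49).

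Thioredoxin reductases keep thioredoxin reduced. *Txnrd3*, best known from testis, read 6.48, 6.56 and 6.47 in M0505 and 7.86, 7.88 and 7.78 in STOSE cells. It was higher by 2.52-fold (log2 1.33, SE 0.06, adjusted p = 4.77e-07) with little spread in either line. *Txnrd1*, the cytosolic enzyme and a known NRF2 target, differed by 0.39 (SE 0.11, adjusted p = 0.0147), and the mitochondrial *Txnrd2* by −0.23 (SE 0.07, adjusted p = 0.0234).

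The largest difference of all 54 members was that of *Sod3*, the superoxide dismutase secreted to the extracellular matrix. It read 4.96, 5.21 and 5.16 in M0505, just above the olfactory receptor level, and 8.62, 9.03 and 8.91 in STOSE cells. The increase was 13.4-fold (log2 3.74, SE 0.11, adjusted p = 5.75e-08). The intracellular enzymes were not higher. *Sod1*, the cytosolic dismutase, read 11.23, 11.35 and 11.30 against 10.66, 10.76 and 10.80, a difference of −0.55 (SE 0.06, adjusted p = 0.000126). *Sod2*, the mitochondrial dismutase, averaged 10.60 ± 0.07 and 10.54 ± 0.02. *Cat*, the peroxisomal catalase, read 11.67, 11.59 and 11.53 against 10.80, 10.74 and 10.78, 1.76-fold lower (log2 −0.82, SE 0.06, adjusted p = 8.05e-06), or −0.62 after centring.

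**Figure D3:**
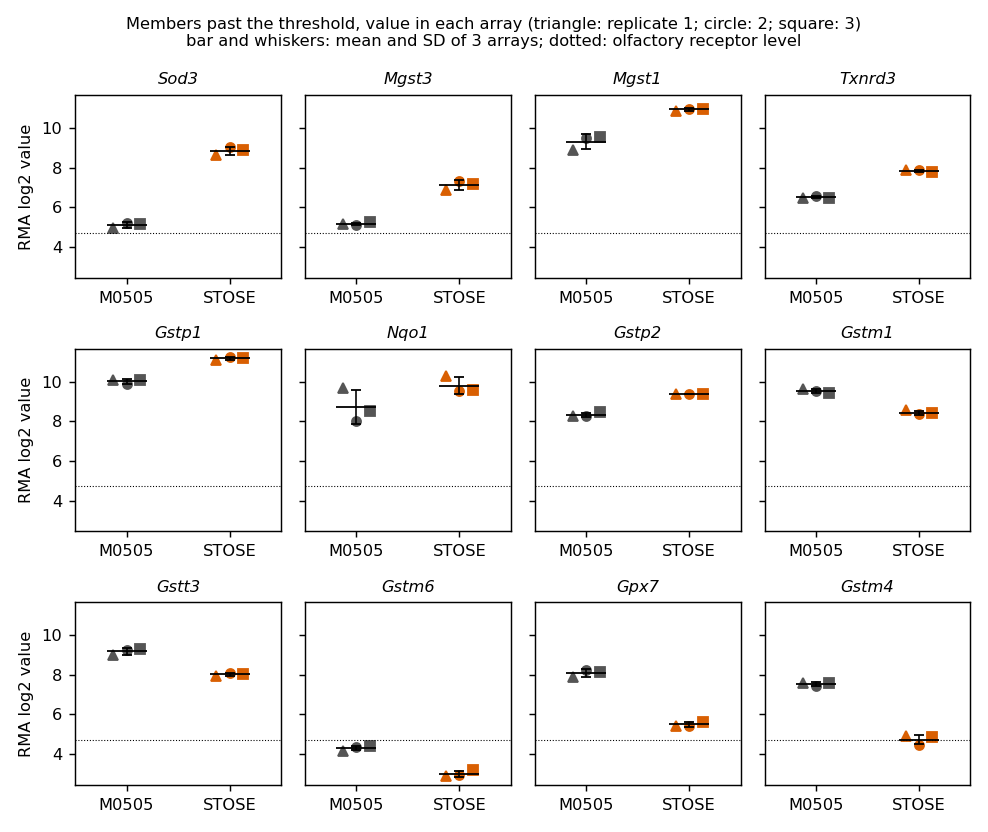
RMA log2 value in each array of the 12 members past both thresholds, with replicate 1 as a triangle, 2 as a circle and 3 as a square, the mean and SD of the 3 arrays, and the olfactory receptor level of 4.72 as a dotted line. The lines are separate in every panel except that of *Nqo1*, where M0505 replicate 1 at 9.69 lies above STOSE replicates 2 and 3.

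*Nqo1*, which reduces quinones, and *Hmox1*, which breaks down heme, are widely used readouts of NRF2 activity. *Nqo1* read 9.69, 8.03 and 8.49 in M0505 and 10.29, 9.53 and 9.56 in STOSE cells, the single member past both thresholds whose arrays overlapped. It was 2.08-fold higher (log2 1.06, SE 0.39, adjusted p = 0.0486). Without M0505 replicate 1 the difference was 1.54 (adjusted p = 0.0016 in limma). Leaving out any of the other 5 arrays ended the call. The difference was 0.70 (adjusted p = 0.161) without M0505 replicate 2 and 0.94 (adjusted p = 0.137) without M0505 replicate 3. It was 0.81 (adjusted p = 0.135), 1.19 (adjusted p = 0.0608) and 1.18 (adjusted p = 0.0675) without STOSE replicate 1, 2 and 3. *Hmox1* read 10.18, 9.17 and 9.22 in M0505 and 10.04, 9.40 and 9.28 in STOSE cells, and the STOSE arrays lay within the M0505 range, with a difference of 0.05 (SE 0.29, adjusted p = 0.893).

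In both genes replicate 1 was the highest array of each line, a pattern noticed in the values and described here without a test. Replicate 1 minus the mean of replicates 2 and 3 was 1.43 in M0505 and 0.74 in STOSE cells for *Nqo1*, which ranked 3 and 72 among the 20405 genes. For *Hmox1* it was 0.99 and 0.69, ranks 17 and 92. The same direction was seen at smaller size in *Gclm*, at 0.60 and 0.21, *Srxn1*, at 0.48 and 0.10, and *Txnrd1*, at 0.37 and 0.17. *Gsr* and *Prdx6* were raised in replicate 1 of M0505 alone, by 0.44 and 0.38, with 0.02 and −0.06 in STOSE cells. Others went the other way, with *Gstm5* at −0.80 and −0.55, *Mgst1* at −0.63 and −0.14, *Gpx7* at −0.30 and −0.08 and *Gstt3* at −0.30 and −0.11. Over all 54 members replicate 1 was above the mean of the others in both lines for 18 and below it in both for 17.

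Replicate 1 of M0505 exceeded the other arrays by more than the 95th percentile of all genes, 0.27, for 9 members (16.7%), namely *Nqo1*, *Hmox1*, *Gclm*, *Srxn1*, *Gsr*, *Gpx2*, *Prdx6*, *Txnrd1* and *Gstm7*. In STOSE cells 4 members (7.41%) exceeded that line's percentile of 0.29, and *Hmox1* and *Nqo1* did so in both lines (3.70% of members, 1.03% of all genes). Replicate 1 was the highest array in both lines for 14 members (25.9%) and for 18.4% of all genes. The labels do not say whether arrays with the same number were handled together, and the cause was not tested.

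**Figure D4:**
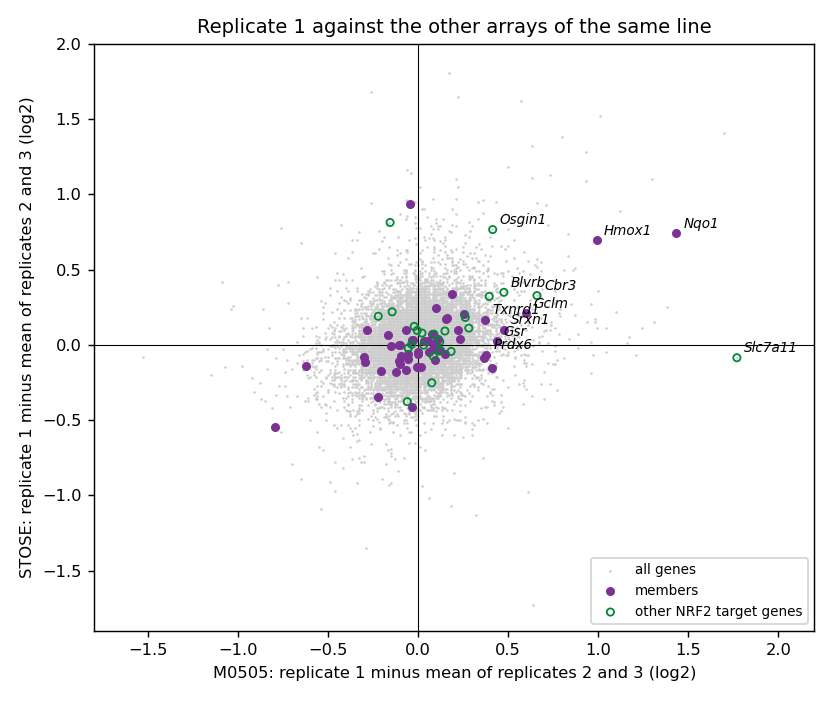
Replicate 1 minus the mean of replicates 2 and 3 on the log2 scale, for M0505 (horizontal axis) and STOSE cells (vertical axis). Gray points are all genes, rounded to a grid, purple points the 54 members and green circles 24 other NRF2 target genes; *Nqo1* and *Hmox1* lie at the upper right, at 1.43 and 0.99 on the horizontal axis.

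The promoters of *Srxn1* and *Gclm*, targets that were higher, like *Nqo1*, in M0505 replicate 1 than in its other arrays, are shown with their matches in capitals. *Srxn1* lies at chr2:152105274-152105573 on the plus strand, with TGAGTCAGC beginning 45 bases before the start site and a core match on the opposite strand 28 bases after it. *Gclm* lies at chr3:122245307-122245606 on the plus strand, with a core match on the opposite strand beginning 134 bases before the start site. *Nqo1* is among the 47 members with a promoter in the table and held neither motif in this window.
Srxn1: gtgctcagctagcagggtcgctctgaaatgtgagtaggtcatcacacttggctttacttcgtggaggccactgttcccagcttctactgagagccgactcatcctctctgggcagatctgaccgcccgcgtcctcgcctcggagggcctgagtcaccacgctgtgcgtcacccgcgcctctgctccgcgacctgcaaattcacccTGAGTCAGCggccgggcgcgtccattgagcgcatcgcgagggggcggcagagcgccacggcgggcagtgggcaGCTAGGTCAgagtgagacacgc
Gclm: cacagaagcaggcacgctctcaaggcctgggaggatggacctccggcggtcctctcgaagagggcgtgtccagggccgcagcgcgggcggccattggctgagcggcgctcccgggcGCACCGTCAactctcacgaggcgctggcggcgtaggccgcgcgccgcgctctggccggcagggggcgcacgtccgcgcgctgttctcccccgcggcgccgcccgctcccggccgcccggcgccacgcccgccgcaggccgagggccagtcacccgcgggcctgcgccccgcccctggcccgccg

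Of 13 genes outside the member list that act on NRF2 or share its sites, 1 was higher (7.69%) and 2 were lower (15.4%), against 4.90% and 7.59% of all genes, with a median of −0.34. *Maff*, a small MAF partner of NRF2, was higher by 1.36 (SE 0.07, adjusted p = 9.71e-07). The NRF2 relative *Nfe2l3* was lower, at −1.29 (SE 0.10). *Bach1*, a repressor that competes with NRF2 at *Hmox1*, was lower by a margin at the threshold, at −1.01 (SE 0.06, adjusted p = 2.33e-06), and fell short of 2-fold after centring (−0.81), after a further quantile normalization (−0.96) and without M0505 replicate 1 (−0.98), M0505 replicate 2 (−0.99) or STOSE replicate 3 (−0.99).

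Other NRF2 targets also split. Of 24 on the array 3 were higher (12.5%) and 6 lower (25%), against 4.90% and 7.59% of all genes, with a median of −0.43. *Aldh3a1*, an aldehyde dehydrogenase, was higher by 2.70 (SE 0.21), the growth inhibitor *Osgin1* by 2.62 (SE 0.21) and the cystine importer *Slc7a11*, which feeds glutathione synthesis, by 1.67 (SE 0.45, adjusted p = 0.0123). *Slc7a11* read 7.82, 5.68 and 6.44 in M0505 and 8.26, 8.29 and 8.40 in STOSE cells, so that its M0505 arrays, with replicate 1 highest, lay far apart and below the STOSE arrays. The methods' t-test gave it an adjusted p of 0.0973. Those lower were the prostaglandin reductase *Ptgr1* at −2.53, the conjugate exporter *Abcc3* at −2.03, the pentose phosphate enzyme *Taldo1* at −1.55, the NADPH source *Idh1* at −1.49, the carbonyl reductase *Cbr3* at −1.15 and the biliverdin reductase *Blvrb* at −1.07. Without M0505 replicate 1 *Cbr3* and *Blvrb* fell short of 2-fold, at −0.93 and −0.91, as they did after centring. Replicate 1 was the highest array of both lines for 9 of the 24 (37.5%).

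In glutathione turnover and use, 1 of 18 genes was higher (5.56%) and 2 were lower (11.1%), against 4.90% and 7.59% of all genes, with a median of 0.03. *Ggt5*, a surface enzyme that cleaves glutathione and its conjugates, fell by 4.43 on the log2 scale (SE 0.09, adjusted p = 9.18e-09) to a STOSE range of 4.48 to 4.77, around the olfactory receptor level. The peptidase *Anpep*, which acts after it, was lower by −2.00 with a STOSE mean of 4.37, under that level, and *Oplah*, which returns oxoproline to glutamate, was higher by 1.38. Of 15 partners of thioredoxin and methionine sulfoxide repair 1 was higher (6.67%) and 4 were lower (26.7%), against 4.90% and 7.59% of all genes. The higher gene was *Txnip*, which binds and inhibits thioredoxin, at 1.43. The lower genes were *Msrb2* at −4.61 and *Msrb3* at −1.26, both methionine sulfoxide reductases, and the sestrins *Sesn1* at −2.06 and *Sesn3* at −1.75.

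Of 19 sources of superoxide and peroxide none was higher past both thresholds, and 3 were higher by adjusted p alone in limma, where the share of all genes was 31.6%. Of the 19, the aldehyde oxidase *Aox1* was lower, at −2.21. Of 8 genes of selenoprotein synthesis 1 was higher (12.5%, against 4.90% of all genes). This was *Scly*, which releases selenium from selenocysteine, at 1.07. With replicates 2 and 3 of both lines alone *Scly* fell short of 2-fold, at 0.98. *Trnau1ap*, at 0.92, passed both thresholds after centring, at 1.12. None of 13 transferase relatives passed both thresholds, where 4.90% of all genes were higher and 7.59% lower. The range of their log2 differences was −0.20 to 0.84. After centring *Eef1g*, at 0.84 before it, passed both thresholds, at 1.04. Over the 110 genes of these lists 7 (6.36%) were higher and 16 (14.5%) lower, against 4.90% and 7.59% of all genes.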

How the data were processed

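RNA of M0505 and STOSE cells was hybridized to 3 arrays per line. Per the labels and the study's methods, the authors normalized the arrays by RMA (Affymetrix Expression Console) and annotated them with T4-MEV; versions and genome build are not given in the sources used here. They deposited log2 values per array; line means and linear fold changes in the same table were not used. All 6 columns of arrays were matched by name, and 0 were left over. Values ran from 1.40 to 12.81.

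Of 28944 probe sets 23530 carried a symbol. The probe set with the highest mean represented a gene, which left 20405 genes. STOSE and M0505 arrays were compared in R 4.3.3 with limma 3.58.1 (lmFit, eBayes), without covariates, with Benjamini-Hochberg adjustment over all genes. A gene was called at an adjusted p under 0.05 and at least 2-fold. Exact permutation of 3 against 3 arrays cannot give a two-sided p below 0.1 and was not used. The code, tested on simulated data of this comparison with 200 of 20405 genes changed, recovered 98.0% at a log2 change of 1.5 and 100% at 2.5, with 0 false calls. An array has no read depth. Signal over background was judged from olfactory receptor probe sets. The members and lists were chosen with earlier results of these data known. Every member past both thresholds was named with its value in each array, others by mean or range, and called genes of each list up to the 6 with the largest change. A called gene of the lists is not reported here. *Ugt1a6a*, written in the list of other NRF2 targets, was not matched. Promoters and gene order came from RefSeq tables (GRCm38.p6); 47 members matched by symbol. Alternatives were other scalings, filters on dim genes, probe set means, other tests, other fold thresholds, a replicate block and leaving out each array.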

Additional observations from a re-analysis of the deposited data

How the results depend on the processing

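The number of higher members was 7 and became 14 with adjusted p alone and 9 at 1.5-fold, while that of lower members was 5 and became 17 and 13. Leaving out each array in turn gave 6 to 7 higher and 5 to 7 lower members. Over all 20405 genes it gave 955 to 1065 higher and 1508 to 1591 lower. Centring each array on its median gave 7 higher and 3 lower, since *Gstm1* and *Gstt3* came under 2-fold, and over all genes it gave 1466 higher and 1177 lower against 1000 and 1548. By adjusted p alone it gave 26 higher and 14 lower members, and 11 members changed sign, none of them past an adjusted p of 0.05. The shares of all genes for these counts, and for those at 1.5-fold, are not given here. A further quantile normalization, the methods' t-test and limma with trend and robust estimation each left 6 higher members, without *Nqo1* (adjusted p of 0.0523, 0.189 and 0.0753). Over all genes these gave 1149, 988 and 998 higher. Filters on dim genes kept 48 members, among which 4 were lower. Without the dimmest 25% of genes 1517 of all 15303 genes kept were lower. With the filter at the olfactory receptor level 1532 of 14831 were. Leaving out single arrays moved *Sod3* between 3.65 and 3.85, *Gstm4* between −2.87 and −2.65 and *Gpx7* between −2.70 and −2.52, and among the 12 called members the call of *Nqo1* was the one lost. Of the pathway list genes *Bach1*, *Blvrb* and *Cbr3* lost theirs. Replicates 2 and 3 of both lines alone, an alternative chosen after seeing the data, gave 7 higher and 6 lower members. Over all genes they gave 1020 higher and 1595 lower. *Nqo1* was then at 1.29 (SE 0.15) and *Gstk1* at −1.20. Same-numbered arrays of the lines deviated from their line means with correlations of 0.26, 0.04 and 0.25. For differently numbered arrays the correlations ran from −0.29 to 0.12. The labels do not say whether same-numbered arrays belong together, and the comparison without covariates did not take them as pairs. A replicate block in limma left 7 higher and 5 lower members, with 1001 higher and 1548 lower over all genes. It lowered the SE of *Nqo1* to 0.16 (adjusted p = 0.0018). The block also brought *Gclm* (adjusted p = 0.0203) and *Gclc* (adjusted p = 0.0488) under 0.05. Signal over background limits the 6 members that lay under the olfactory receptor level in both lines, *Gpx3*, *Gpx5*, *Gpx6*, *Gsta1*, *Gstm6* and *Gstt4*.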
